A study of Homo sapiens with 2 samples.

Results

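The replication-dependent histone genes of human chromosomes 6 and 1 were described in H9 cells, an established line of human embryonic stem cells. Members were the protein-coding genes in RefSeq (GRCh38.p14) whose symbols begin with H1-, H2AC, H2BC, H3C or H4C on chromosome 6 between 25 and 29 Mb, and those beginning with H2AC, H2BC, H3C or H4C on chromosome 1. The rule took 68 of 19974 protein-coding genes of chromosomes 1 to 22 and X, 55 on chromosome 6 and 13 on chromosome 1. They were 6 H1, 17 H2A, 18 H2B, 13 H3 and 14 H4 genes, and the rule itself uses no measured value. By textbook knowledge 3 of them, H1-6, H2AC1 and H2BC1, are restricted to the testis, and the other 65 are called replication-dependent here.

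There was 1 group, undifferentiated H9 cells labelled as pluripotent, with 2 replicates and no treated group. ATAC-Me was used, in which a transposase cuts open chromatin and the fragments are then converted, so that a fragment's position shows accessibility and its sequence shows methylation of CpGs. The replicates held 29270697 and 52758656 CpG reads, that is, reads counted at each CpG they cover, and covered 31.2% and 58.3% of 29175448 listed CpGs. Methylated reads made up 32.3% of the autosomal CpG reads in replicate 1 and 46.0% in replicate 2. Nothing in the labels tells whether separate cultures were used, and the replicate spread may therefore be technical. At the starts of marker genes, SOX2, a pluripotency factor, had 0.585% and 1.80% methylation, and NANOG, another, had 0% and 2.94%, each with a peak. DNMT3B, a DNA methyltransferase of these cells, had 43.9% and 49.7% at its 1 listed start, with a peak. Of the markers of other lineages only KRT5, a keratin of epithelia, had enough reads, with 91.8% and 84.8% and no peak.

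Replication-dependent histone genes supply the core and linker histones that package new DNA in S phase. They are short, lack introns as a rule, occur in many copies, and give mRNAs that end in a stem-loop instead of a poly(A) tail. NPAT gathers with them in nuclear histone locus bodies and drives their transcription, and SLBP binds the stem-loop. H1-6, H2AC1 and H2BC1 encode linker H1, H2A and H2B proteins of male germ cells. Many H2A and H2B genes lie head to head and share the DNA between their starts as a promoter.

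The shared promoter of the testis pair H2AC1 and H2BC1 (chr6:25726563-25726776) and that of the replication-dependent pair H2AC15 and H2BC15 (chr6:27838376-27838568) are shown as the one such pair without a peak and one with a strong peak. Both are RefSeq sequence (GRCh38.p14), plus strand, from the base after one start to the base before the other, with CpGs in capitals.
H2AC1/H2BC1: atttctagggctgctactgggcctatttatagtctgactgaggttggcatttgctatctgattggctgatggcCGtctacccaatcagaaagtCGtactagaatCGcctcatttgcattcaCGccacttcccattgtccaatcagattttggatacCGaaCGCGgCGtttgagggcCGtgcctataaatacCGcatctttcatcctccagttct
H2AC15/H2BC15: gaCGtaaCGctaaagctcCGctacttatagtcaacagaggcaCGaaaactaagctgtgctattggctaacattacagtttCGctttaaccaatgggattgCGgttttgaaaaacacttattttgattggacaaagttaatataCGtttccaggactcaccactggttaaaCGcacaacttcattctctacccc
The first held 10 CpGs and the second 8. Of the reads on the H2AC1 and H2BC1 promoter, 33.3% of 6 in replicate 1 and 90% of 10 in replicate 2 were methylated, both under the minimum of 20 reads and too few to place its level. On the H2AC15 and H2BC15 promoter the values were 0% of 214 reads and 1.63% of 245 reads.

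Among single genes, the 250 bases before the start are shown for 3 methylated members, each followed by an unmethylated member of its class, 5′ to 3′ on the strand of the gene. H1-6 (chr6:26108136-26108385, minus strand) is the testis linker histone and H1-4 (chr6:26156079-26156328, plus strand) a somatic one. H4C6 (chr6:26240143-26240392, plus strand) and H4C8 (chr6:26285535-26285784, minus strand) are H4 genes. H2BC3 (chr6:26043714-26043963, minus strand), where the pseudogene H2AC5P overlaps, and H2BC10 (chr6:26272681-26272930, plus strand) are H2B genes. CpGs are again in capitals.
H1-6: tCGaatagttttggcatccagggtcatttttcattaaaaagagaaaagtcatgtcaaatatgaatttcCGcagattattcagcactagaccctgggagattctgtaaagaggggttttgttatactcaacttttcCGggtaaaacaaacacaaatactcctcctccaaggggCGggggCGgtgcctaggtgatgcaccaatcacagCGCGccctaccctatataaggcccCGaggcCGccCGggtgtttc
H1-4: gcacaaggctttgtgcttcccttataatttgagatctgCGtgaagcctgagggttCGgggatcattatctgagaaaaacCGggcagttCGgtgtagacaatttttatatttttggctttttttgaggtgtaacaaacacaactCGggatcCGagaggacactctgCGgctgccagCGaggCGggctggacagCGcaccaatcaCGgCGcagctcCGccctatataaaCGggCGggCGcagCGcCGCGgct
H4C6: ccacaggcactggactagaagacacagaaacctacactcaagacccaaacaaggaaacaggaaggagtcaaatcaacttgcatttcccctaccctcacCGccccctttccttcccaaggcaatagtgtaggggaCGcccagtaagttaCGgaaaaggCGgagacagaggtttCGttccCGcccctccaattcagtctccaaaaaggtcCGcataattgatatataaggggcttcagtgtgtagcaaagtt
H4C8: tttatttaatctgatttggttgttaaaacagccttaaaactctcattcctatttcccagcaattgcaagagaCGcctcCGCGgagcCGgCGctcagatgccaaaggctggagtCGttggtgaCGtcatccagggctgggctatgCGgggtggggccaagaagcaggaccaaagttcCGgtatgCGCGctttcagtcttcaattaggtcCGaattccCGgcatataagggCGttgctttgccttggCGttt
H2BC3: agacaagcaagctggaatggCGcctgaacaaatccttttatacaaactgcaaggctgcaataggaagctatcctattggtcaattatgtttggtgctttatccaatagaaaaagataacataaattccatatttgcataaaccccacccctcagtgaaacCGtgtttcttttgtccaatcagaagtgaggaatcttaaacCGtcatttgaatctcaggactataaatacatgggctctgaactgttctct
H2BC10: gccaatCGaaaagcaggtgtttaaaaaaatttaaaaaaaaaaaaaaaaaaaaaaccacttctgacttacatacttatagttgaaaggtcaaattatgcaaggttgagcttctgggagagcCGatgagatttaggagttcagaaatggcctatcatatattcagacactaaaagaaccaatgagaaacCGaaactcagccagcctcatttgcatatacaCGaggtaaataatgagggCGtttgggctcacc
On the H1-6 sequence 100% of 8 reads and 95.7% of 23 reads were methylated, and on that of H1-4 0% of 220 and 1.13% of 265. For H4C6 the values were 100% of 14 reads and 100% of 4, and for H4C8 0% of 142 and 1.25% of 320. For H2BC3 they were 100% of 3 reads and 81.8% of 11, and for H2BC10 0% of 65 and 0% of 88. Most values of the methylated members here rest on under 20 reads, and the unmethylated members were picked as examples.

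Most histone genes were open and almost free of methylation. Each gene was measured with 500 bp on each side, and 60 of the 68 reached the minimum of 20 CpG reads per replicate. Of these 60 measured genes 53, or 88.3%, were under 20% methylated in both replicates, against 53% of 474 other autosomal protein-coding genes spanning at most 2000 bp and 30% of 17242 other autosomal genes of any length. Over 80% in both replicates were 2 genes, H2AC1 and H4C6, or 3.33%, against 22.8% of the short genes and 7.47% of all others. The remaining 5 were H2BC1, H1-6, H1-1, H1-3 and H4C15. A peak of the authors' list overlapped 52 of the 68 windows, or 76.5%, against 21.7% of 1111 other short genes and 74.8% of 19058 other genes of any length. The read minimum kept 60 of the 68 members but 474 of the 1111 other short genes, so the methylation shares rest on unequally selected genes. The windows of 42 members overlapped another member's window, so the member counts are not of independent regions.

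The 3 testis-restricted genes had median methylation of 80% in replicate 1 and 92.9% in replicate 2, a mean of 86.4% ± 9.09 (SD, n = 2). The 57 measured replication-dependent genes had medians of 0.472% and 1.49%, a mean of 0.981% ± 0.720 (SD, n = 2). The gap between these medians was larger than the spread between replicates. A methylation value between 0 and 100% does not show whether it comes from a share of cells or of alleles; these cannot be told apart here. On chromosome 6 the median over 52 measured members was 0.589% and 1.72%, and on chromosome 1 over 8 it was 0.462% and 1.05%.

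**Figure D1:**
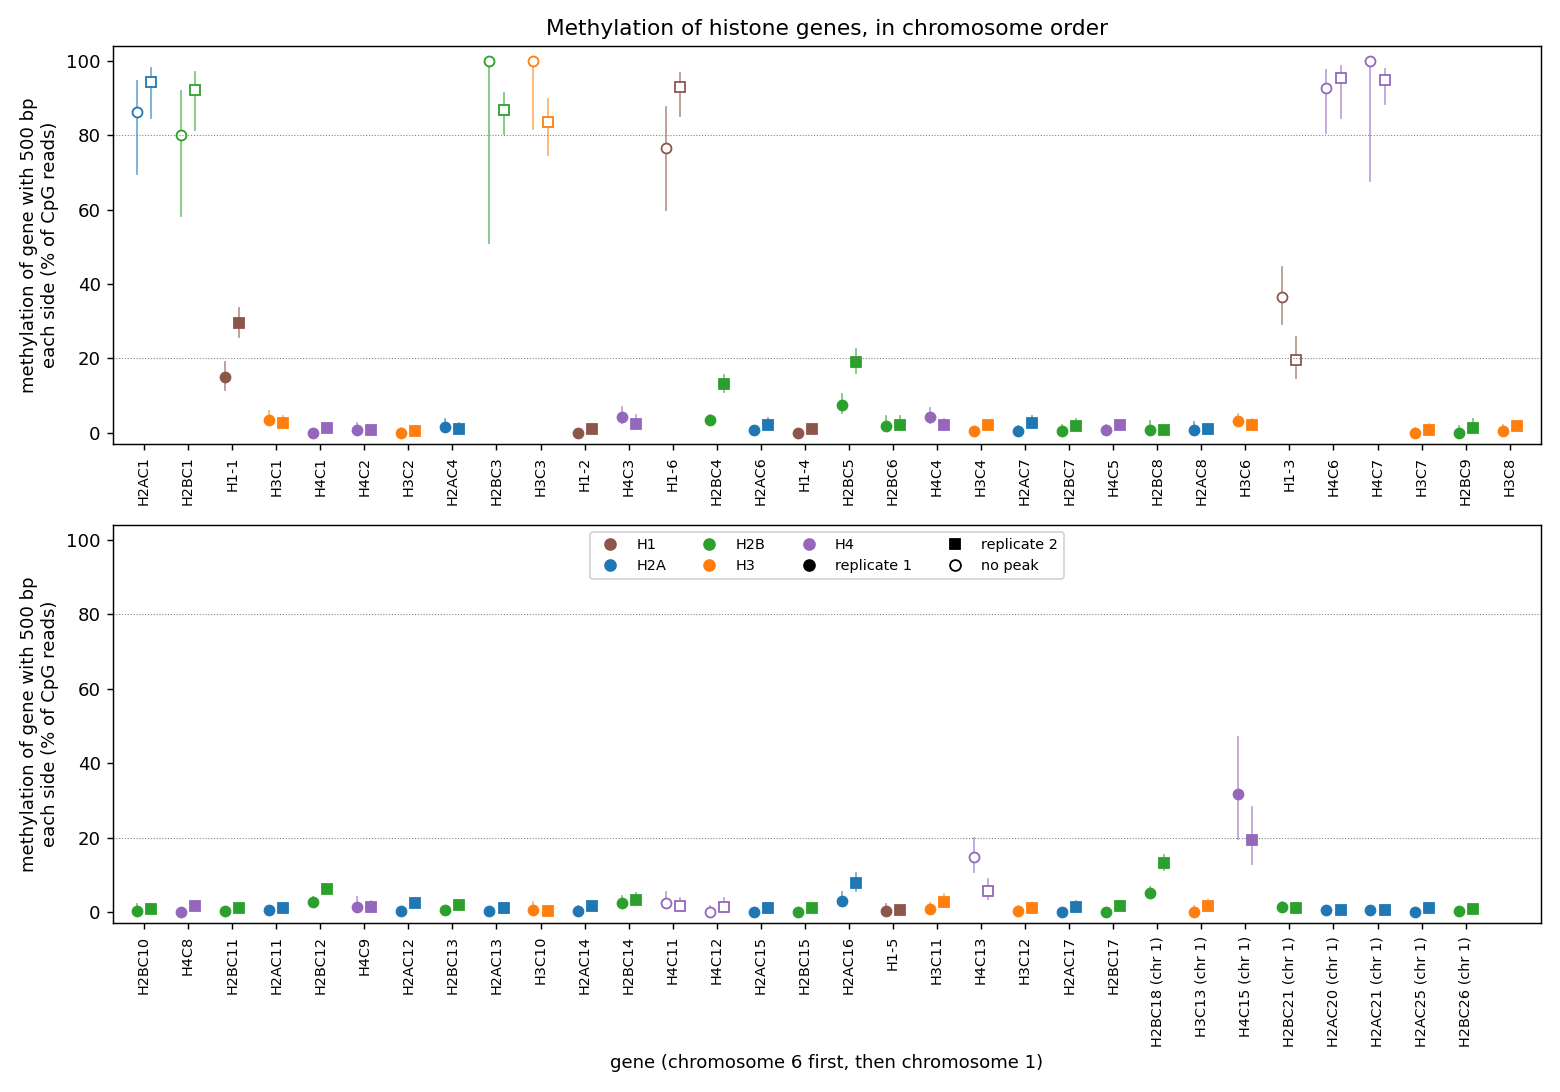
Methylation of each histone gene with 500 bp on each side (y axis, % of CpG reads) in chromosome order (x axis), with circles for replicate 1, squares for replicate 2, colours for classes, open symbols for genes without a peak and bars for 95% Wilson intervals. 7 genes without a peak lie at means of 84.7% to 97.4%, and most others lie near 0.

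The 3 testis-restricted genes were methylated in both replicates, and none had a peak. H2AC1 had 86.2% of 29 reads methylated in replicate 1 and 94.3% of 53 in replicate 2, a mean of 90.3% ± 5.75 (SD, n = 2). H2BC1, its head-to-head partner, had 80% of 20 reads and 92.2% of 51, a mean of 86.1% ± 8.60 (SD, n = 2). H1-6, the testis linker histone, had 76.5% of 34 reads and 92.9% of 84, a mean of 84.7% ± 11.6 (SD, n = 2). Few reads stood behind these values: the 95% Wilson interval of H2BC1 ran between 58.4% and 91.9% in replicate 1 and between 81.5% and 96.9% in replicate 2. Such intervals cover counting error only, and reads at neighbouring CpGs are not independent, so the intervals are too narrow.

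Each segment of the H2AC1 window was read few times, and most of these reads were methylated. Before the start H2AC1 had 63.6% of 11 reads and 91.7% of 12, within the gene 100% of 6 and 92% of 25, and after its end 100% of 12 and 100% of 16. The pair lay in a stretch of 242.9 kb without a peak, in which 78.0% and 86.2% of all CpG reads were methylated. The shared promoter falls within the ends of SLC17A1, a phosphate transporter gene; whether in an exon or an intron is not in the reference used here. H1-6, in contrast, lay among unmethylated genes: H4C3 had 4.35% and 2.49%, and H2BC4 3.30% and 13.04%. The peak-free stretch around H1-6 was 18.7 kb long, with 46.7% and 70.1% methylation.

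High methylation was not confined to the testis-restricted genes: 4 replication-dependent genes were as high. H4C6 had 92.7% of 41 reads and 95.3% of 43, a mean of 94.02% ± 1.89 (SD, n = 2). The other 3 fell under 20 reads in replicate 1 and entered no count of measured genes. H4C7 had 100% of 8 reads and 94.8% of 97. H2BC3 had 100% of 4 reads and 86.9% of 145. H3C3 had 100% of 17 reads and 83.5% of 91. In replicate 2, where reads were more, their 95% Wilson intervals ran between 88.5% and 97.8% for H4C7, between 80.4% and 91.4% for H2BC3, and between 74.6% and 89.7% for H3C3. H4C6 and H4C7 are neighbours, and so are H2BC3 and H3C3.

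Set apart after their values were seen, the 7 members with a mean over 80% all lacked a peak, whereas 52 of the 56 other members with reads had one. The nearest peak lay 9757 bp from the H4C6 window, 3554 bp from that of H4C7, 9411 bp from that of H2BC3 and 10495 bp from that of H3C3. The stretch without a peak around H2BC3 and H3C3 spanned 22.5 kb, with 42.5% and 55.2% methylation. The one around H1-3, H4C6 and H4C7 spanned 25.1 kb, with 46.5% and 45.8%. The 7 windows held 48 to 70 CpGs, within the range of 42 to 572 of the others, and within 500 bp of the start they held a median of 46 (31 to 56) against 55 (27 to 89).

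Read coverage was lower at the methylated members, so the methylated values rest on the thinnest data. Within 500 bp of the annotated start the 7 methylated members had a median of 0.117 CpG reads per CpG per 10000000 autosomal CpG reads in replicate 1 (0.0257 to 0.317) and 0.332 in replicate 2 (0.149 to 0.531). The 49 starts under 20% in both replicates had medians of 1.91 (0.490 to 4.33) and 1.61 (0.425 to 3.27). The ranges did not overlap in replicate 1 and overlapped in replicate 2. The assay recovers DNA by its accessibility, and the part of coverage in these values was not tested.

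**Figure D2:**
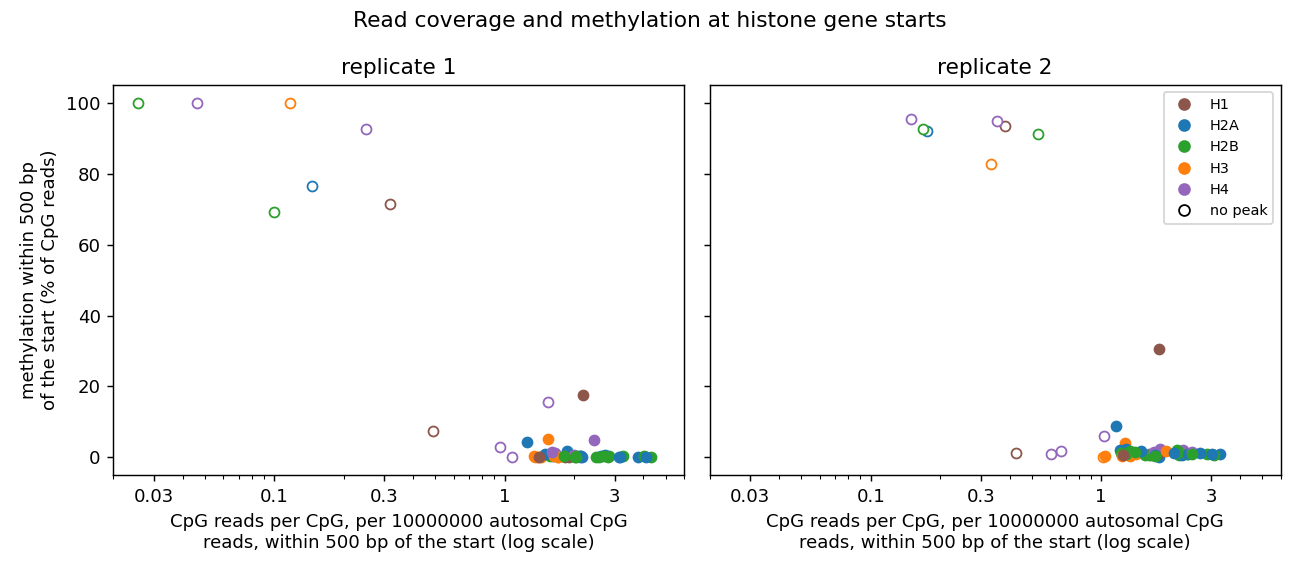
Methylation within 500 bp of each histone gene start (y axis, % of CpG reads) against CpG reads per CpG per 10000000 autosomal CpG reads (x axis, log scale), with 1 panel per replicate and open symbols for starts without a peak. The 7 methylated members lie at the left, up to 0.317 in replicate 1 and 0.531 in replicate 2.

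At annotated starts the histone genes were close to other genes. Of 63 members with a start in the reference, 52 start windows of 500 bp on each side were measured, and 49 of them, or 94.2%, were under 20%, against 91.4% of 11401 other autosomal starts. Over 80% was 1 start, against 2.56% of the others. The read minimum left out the starts of H2AC1, H2BC1, H2BC3, H3C3 and H4C7, which had under 20 reads in replicate 1. Their methylation lay between 69.2% and 100% in each replicate, so these counts depend on the minimum. The rest of the unmeasured histone starts had no read. A peak overlapped 45 of the 63 start windows, or 71.4%, against 61.8% of 15038 other starts. The 52 measured histone starts had medians of 0.345% and 1.13% methylation, against 0.676% and 1.65% at the other measured starts. Histone start windows held a median of 55 CpGs (27 to 89), against 65 at other starts. Coverage, as CpG reads per CpG per 10000000 autosomal CpG reads, had medians of 1.65 and 1.33 over the 63 histone starts, against 2.06 and 1.73 over the other starts. Over the 45 histone starts with a peak the medians were 2.03 and 1.69, against 3.60 and 2.78 over the other starts with a peak.

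Away from the start the 49 low histone starts stayed low over a longer distance than 198 low starts of other short genes, most clearly after the start. In the first 100 bp after the start 0.308% and 1.13% of reads were methylated at histone genes, against 0.835% and 1.71% at the other genes. Between 900 and 999 bp after the start the values were 2.15% and 3.07% at histone genes, a mean of 2.61% ± 0.651 (SD, n = 2), against 9.86% and 13.8% at the other genes, a mean of 11.8% ± 2.80 (SD, n = 2). In the bin from -1000 to -901 bp, before the start, they were 6.03% and 4.78% at histone genes, against 9.28% and 13.6% at the other genes. The difference did not hold in every bin: from -700 to -601 bp the values were 8.33% and 7.19% against 5.01% and 7.70%, and from 1800 to 1899 bp 18.3% and 29.4% against 14.7% and 30.9%. Both sets of starts were chosen for low methylation within 500 bp, so only the values beyond that distance describe a difference. Many histone starts have another histone gene within this distance.

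**Figure D3:**
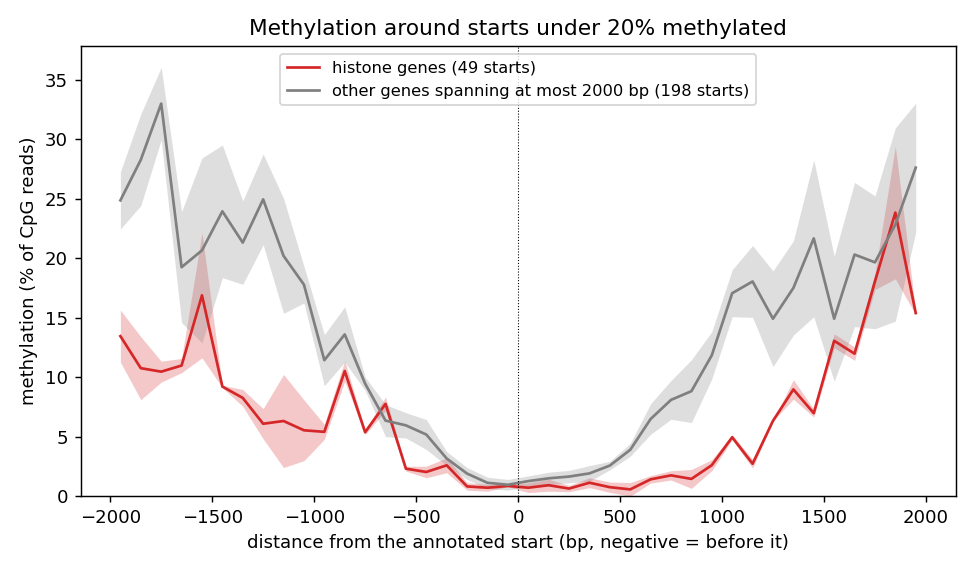
Methylation (y axis, % of CpG reads, mean of 2 replicates as a line and both replicates as the edges of the band) in bins of 100 bp from the annotated start (x axis, bp) for 49 histone starts and 198 starts of other genes spanning at most 2000 bp. Between 900 and 999 bp after the start the histone genes lie at 2.61% and the other short genes at 11.8%.

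Among the linker histones, 3 of 6 genes were unmethylated and 3 were not, so the class median of 7.65% and 10.4% (mean 9.03% ± 1.95, SD, n = 2) falls between them. H1-5 had 0.388% and 0.458%, H1-2 had 0% and 1.06%, and H1-4 had 0% and 1.11%. H1-1 had 14.9% of 342 reads and 29.6% of 538, a mean of 22.2% ± 10.4 (SD, n = 2), although 2 peaks overlapped it. Its replicates differed (adjusted p = 8.08e-07, Fisher's exact test with Benjamini-Hochberg adjustment). Methylation of H1-1 was 13.8% and 27.3% before the start and 24% and 37.7% within the gene.

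H1-3 had 36.6% of 145 reads and 19.7% of 198, a mean of 28.1% ± 11.9 (SD, n = 2), with no peak. The replicates differed here as well, with replicate 1 higher (adjusted p = 0.00118, Fisher's exact test with Benjamini-Hochberg adjustment). The methylation lay toward its 3′ side: 2.94% and 1.79% of reads were methylated before the start, 18.4% and 2.50% within the gene, and 61.6% and 36.3% after the end. From 250 bp before to 50 bp after its start 0% of 31 reads and 0% of 53 were methylated.

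**Figure D4:**
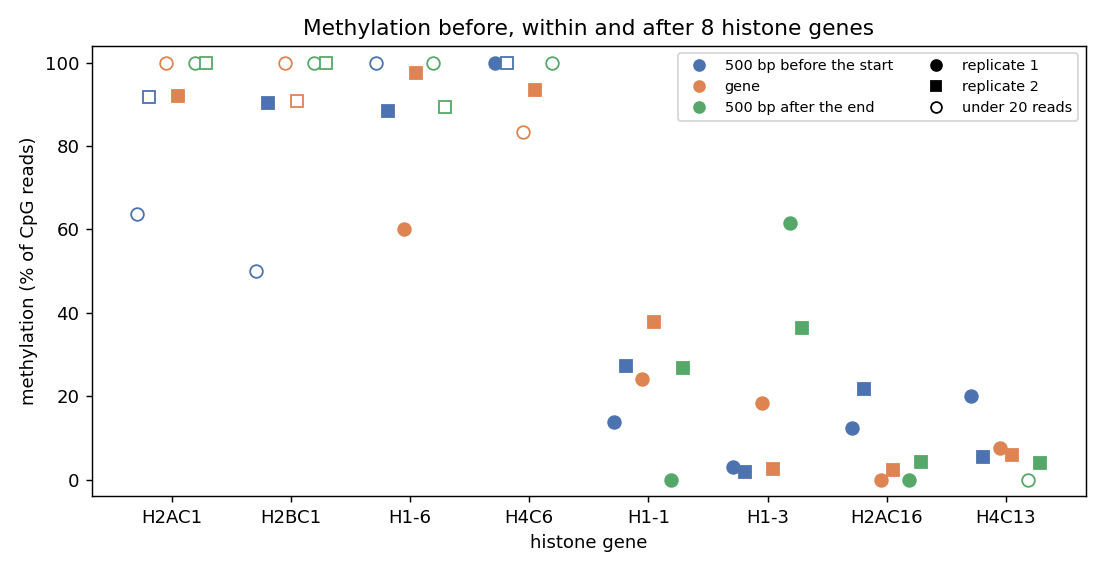
Methylation (y axis, % of CpG reads) in the 500 bp before the start, within the gene and in the 500 bp after the end of 8 histone genes (x axis), with circles for replicate 1, squares for replicate 2 and open symbols where under 20 reads were counted. H1-3 is at 2.94% and 1.79% before its start and at 61.6% and 36.3% after its end.

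The core histone classes, which encode the proteins of the nucleosome, had low medians in each replicate. For H2A it was 0.411% and 1.18% over 15 measured genes, of which 14 were under 20% and 1, H2AC1, over 80%. For H2B it was 0.862% and 1.83% over 17 genes, of which 16 were under 20%. For H3 it was 0.386% and 1.64% over 10 genes, all under 20%. For H4 it was 1.91% and 1.86% over 12 genes, of which 10 were under 20%. The classes were not tested against each other. A peak overlapped the window of 14 of 17 H2A, 16 of 18 H2B, 10 of 13 H3, 8 of 14 H4 and 4 of 6 H1 genes. The peak of H3C4 is the one shared by H2AC7 and H2BC7, and that of H4C15 lies far from its start. At listed starts a peak lay at 13 of 16 H2A, 16 of 18 H2B, 7 of 11 H3, 5 of 12 H4 and 4 of 6 H1 genes. The H2A, H3 and H4 totals include genes without a read.

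The least methylated gene of each class had almost no methylated read. H3C2 had 0% of 271 reads and 0.500% of 400, the lowest mean of all at 0.250% ± 0.354 (SD, n = 2). H2AC21 had 0.411% of 487 reads and 0.452% of 663. H2BC26 had 0.283% of 1060 reads and 0.672% of 1488, and H4C1 had 0% of 459 and 1.15% of 697. Among measured H3 genes the highest was H3C1, at 3.42% and 2.64%, with 15.1% of 53 reads and 13.98% of 93 methylated in the 500 bp before its start.

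Some low genes carried methylation in a segment of their window. H4C13 had 14.8% of 236 reads and 5.54% of 289, a mean of 10.2% ± 6.57 (SD, n = 2), with no peak. In replicate 1 it had 20.1% before the start, 7.59% within the gene and 0% of 13 reads after the end, and in replicate 2 the same segments had 5.45%, 5.84% and 4%, so a side was seen in replicate 1 only. Its replicates differed, with replicate 1 higher (adjusted p = 0.000798, Fisher's exact test with Benjamini-Hochberg adjustment). H2AC16 had 2.93% and 7.78% over its window and 12.3% and 21.7% before the start. H2BC14 had 0% and 0.633% within the gene but 34.8% of 23 reads and 30.0% of 60 after its end. H4C11, with 2.38% and 1.49%, and H4C12, with 0% and 1.43%, were unmethylated without a peak, and the nearest peak lay 8881 bp and 6602 bp away.

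Genes with long annotated spans had higher values. The 8 members that span more than 2000 bp had medians of 3.18% and 9.63%. H2BC5 had 7.42% and 19.05% over its span, but 0% and 0.971% from 250 bp before to 50 bp after its start. H2BC4 had 3.30% and 13.04% over its span against 0% and 0.758% at the start, and H2BC18 had 4.99% and 13.1% against 0% and 1.03%. These 3 were among the genes whose replicates differed most, with adjusted p = 1.72e-07 for H2BC5, 7.78e-12 for H2BC4 and 2.57e-09 for H2BC18 (Fisher's exact test with Benjamini-Hochberg adjustment).

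In all, the replicates differed at 22 of 60 measured members, or 36.7%, against 79.2% of 17302 autosomal genes tested, by the same exact test. The 17302 genes are of any length, and longer windows hold more CpG reads, so these shares are not of like windows. The share over short genes was not computed. In 20 of the 22 replicate 2 was higher, the direction of 78.2% of all tested genes, and in H1-3 and H4C13 replicate 1 was higher, as in 0.936% of all tested genes. Replicate 2 was also higher at 40 of the 53 low members, and the like share of other low genes was not computed. The test compares 2 libraries and not conditions, and its p-values are too small because reads at neighbouring CpGs are not independent.

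Peaks at histone genes mostly had their summits just before the start. The 52 genes shared 47 distinct peaks, with a median width of 388 bp against 295 bp over all 46980 peaks. Their peak signal, the authors' own value in units of the caller, had a median of 689 (201.8 to 2073) against 541 over the list, and 30 of the 47 were above the list's median. Of the 46 that reached 20 CpG reads per replicate 45 were under 20% methylated in both, with medians of 0% and 0.966%. In 45 members a summit lay within 500 bp of the start, in 42 of them before it, at a median of -100 bp (-191 to 32). The median summit was at -127 bp for H2A, -110.5 bp for H2B, -90 bp for H4, -44.5 bp for H1 and -32 bp for H3.

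Peaks between head-to-head genes had the higher signal. In 11 pairs an H2A and an H2B gene started 193 to 247 bp apart, and 10 of the 11 had a peak there; the exception was H2AC1 and H2BC1. Signal at the 10 had a median of 1340 (899.9 to 2073), whereas 25 of 41 single starts had a peak, with a median of 616 (258.8 to 1808). The single starts include those of H4C14, H3C14, H2AC18, H4C15, H2AC19 and H3C15, which had no read in either replicate. All pairs had reads, so the shares with a peak are not of like starts. In signal the pair H2BC11 and H2AC11 was highest, with 0% of 289 reads and 0.756% of 397 methylated between its starts. Among single starts the highest was H2BC12, which lies beside H2AC12, a gene without a listed start. The same peak overlapped the H2AC12 window, and without that start the 2 genes could not be counted as a pair. By class the median signal at starts was 1327 for H2A, 1314 for H2B, 762 for H4, 524 for H1 and 452 for H3. A pair's peak counts for both of its genes, and the list holds no value per replicate, so these differences have no replicate check.

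**Figure D5:**
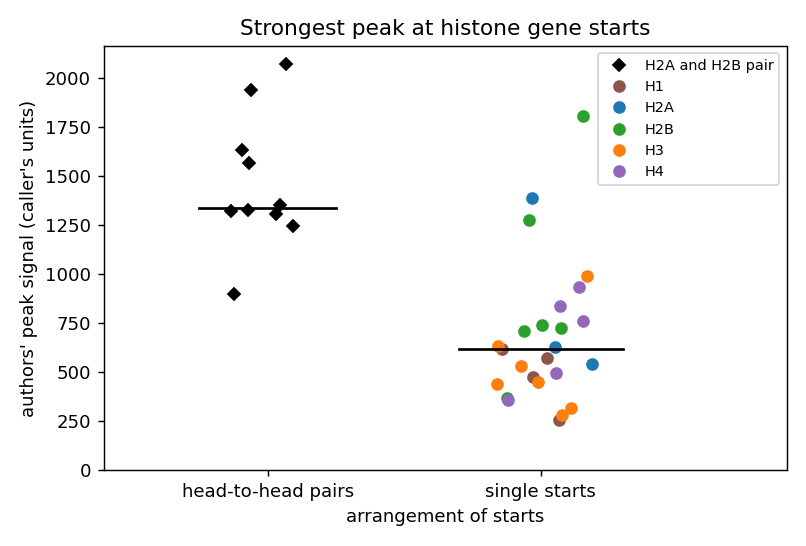
Signal of the strongest authors' peak (y axis, caller's units) at 10 head-to-head pairs of H2A and H2B genes and at 25 single starts with a peak (x axis), with lines at the medians of 1340 and 616. Points are spread sideways for sight only, and the pair without a peak is not drawn.

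The promoters differed by class in short sequence motifs, searched on both strands in 250 bases before to 50 after each start, 63 members against 27305 listed promoters. The octamer ATTTGCAT, the site of POU factors such as POU2F1, was in 25 of the 63, or 39.7%, against 1.80% of all promoters. It was in 14 of 18 H2B and 11 of 16 H2A promoters and in none of the H1, H3 and H4 ones. The CCAAT box was in 85.7% of members against 35.7% of all: in all 6 H1, 16 H2A, 18 H2B and 11 H3 promoters, but in 3 of 12 H4 promoters. TATAAA was in 66.7% against 11.95%, and the H1 box AAACACAA was in 4 of 6 H1 promoters and in no other member, against 1.61% of all. Paired genes share a window, so their matches are often the same letters.

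Methylated members held these letters too. The octamer was in the printed promoters of H2AC1 and H2BC1 and of H2BC3, and H1-6 held the H1 box, as H1-4 did. The exact octamer was not in the H2AC15 and H2BC15 sequence, which was unmethylated and had a peak of signal 1565. A match describes the letters only and does not show that a factor binds.

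On chromosome 1, 5 members, H4C14, H3C14, H2AC18, H2AC19 and H3C15, had no read at any CpG of their windows in either replicate. They lie in an inverted repeat: the 300-base promoter windows were identical between H4C14 and H4C15 in 300 of 300 bases, between H2AC18 and H2AC19 in 299 of 299 aligned bases and between H3C14 and H3C15 in 296 of 296. For comparison, H2AC20 and H2AC18 matched in 90 of 299. The 3 longest runs of CpGs without a read in either replicate in this part of chromosome 1 were 10426, 8180 and 6908 bp. Of the 5 members only H4C14 lies in one of these runs, that of 6908 bp. Reads from identical copies cannot be placed uniquely, the mapper is not given in the sources used here, and the part of this in the missing reads was not tested. H4C15 spans into the repeat, and its 31.7% of 41 reads and 19.4% of 103 and its 1 peak come from the rest of its span, with the peak summit 15475 bp from its start.

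Within each cluster the histone windows and peaks were far less methylated than the DNA between them. Peaks were counted with the windows, so the DNA between them holds no listed peak, and part of the gap is set by this division. For genes spanning more than 2000 bp, 1000 bp on each side of the start were taken here as the window. In the cluster of chromosome 6 that runs from H1-1 to H4C8, with 32 members over 268.5 kb, windows and peaks had 3.09% and 5.73% methylation, against 53.1% and 54.5% outside them. From H2BC11 to H2AC12, with 5 members, the values were 0.493% and 1.35% inside against 55.1% and 57.7% outside. From H2BC13 to H2BC17, with 16 members, they were 1.77% and 2.38% against 64.7% and 74.6%. In the chromosome 1 cluster of 11 members they were 0.281% and 0.812% against 26.6% and 35.2%. The 40 non-histone genes of chromosome 6 between 25 and 29 Mb had medians of 13.9% and 24.6%, with 15 of 35 measured under 20% and 22 with a peak. These are whole spans, many of them far longer than a histone gene. At their starts 17 of 21 measured were under 20%, with medians of 1.06% and 1.81%, near the 0.345% and 1.13% of the histone starts. Over whole spans they ran between PRSS16, a serine protease gene, at 3.42% ± 1.63 and SLC17A1 at 88.0% ± 3.77 (SD, n = 2). The listed start of PRSS16, however, had 77.8% of 18 reads and 76% of 25 methylated, without a peak.

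At the starts of other autosomal genes 91.4% were under 20% and 61.8% had a peak, and counts of low starts near that share say nothing particular of a list. Of 12 listed replication-independent genes, which are not tied to S phase as a rule, 10 had a listed start, all 10 were under 20% and 9 had a peak, with medians of 0.428% and 1.18%. MACROH2A2 was the one without a peak, at 0.524% and 3.03%. Of 15 listed germ-cell and other variant genes, H2AW and H2BU1 are the members H2AC25 and H2BC26, counted above as replication-dependent, low and with a peak. H2AC25 had 0.101% of 991 reads and 0.966% of 1552, and H2BC26 is given above. Of the other 13, 3 were measured at their starts, none of them under 20% and none with a peak. H1-8, the oocyte linker histone, had 83.3% and 74%, H2BK1 had 83.3% and 75.4%, and H3Y1 had 89.3% and 94.7%. H3-4, the testis H3 gene on chromosome 1, had 92.9% of 14 reads and 93.04% of 115. Of the genes that act on histone gene transcription and mRNA, all 17 with a start were under 20%, close to the background of 91.4%, 16 had a peak, and the medians were 0.297% and 1.42%. NPAT had 0.282% and 0.885%, SLBP 0.126% and 1.15%, and HINFP, which activates H4 genes, 0.234% and 0.809%. CSTF2, the one without a peak, lies on chromosome X, where no peak was listed.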

How the data were processed

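CpG tables, 1 per replicate, were deposited by the authors with a methylation fraction and a count of reads at each CpG, and 1 deposited peak list for the group holds a score, a peak signal and the −log10 of the p-value and q-value. Trim Galore, Genrich and hg38 (GRCh38) are named, per the submitters' processing notes. Not given in the sources used here: mapper, methylation caller and replicate handling. Methylated reads are the fraction times the count, whole within 0.001 for 100% of CpGs. A region's value is methylated over all CpG reads per replicate, then the mean and SD. Regions needed 20 reads in each replicate; limits were 20% and 80%. Peaks overlapped by at least 1 bp. Replicates were compared with Fisher's exact test, two-sided, Benjamini-Hochberg adjusted over all autosomal genes at 0.05. The test was tried on simulated reads drawn independently, which cannot show its error where reads at neighbouring CpGs depend on each other. Starts came from the RefSeq promoter table (GRCh38.p14): the listed start nearest the gene's 5′ end, and for H3C4 the next one, since the outermost is that of H2AC7. H4C1, H4C3, H2AC12, H3C11 and H3C12 have no listed start. H2AW and H2BU1 are listed as H2AC25 and H2BC26. Any member may be named; given in full are the testis-restricted genes, extremes of each class, genes without a peak and those whose replicates differ most, and others come from fixed lists. The rule for members uses symbols and positions only, but the set, like the lists, was proposed with earlier results of these data known. Python 3.11.15, numpy 2.4.6, pandas 2.3.3, scipy 1.17.1 and matplotlib 3.10.9 were used.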

Additional observations from a re-analysis of the deposited data

How the results depend on the processing

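Of 84 alternative values for 10 results, 69 stayed within the replicate spread or 1.5 times the count, 15 moved and 0 reversed. The H1 median, 9.03%, was 5.96% with a flank of 250 bp, 11.9% with 1000 bp, 0.360% from 250 bp before to 50 bp after the start, 0.747% with at least 50 reads and 13.3% with CpGs weighted equally. The H4 median, 1.89%, was 0.963%, 4.28%, 0.911%, 1.37% and 1.45% under the same 5 settings, and lay between 1.91% and 2.03% with 1 replicate left out. The H2B median, 1.34%, was 2.08% with 1000 bp and 0.413% at the start. Genes differing between replicates numbered 13 in place of 22 with 250 bp. With overlapping windows merged, 33 of 39 regions were under 20%, because fewer regions are counted. With at least 50 reads, and from 250 bp before to 50 bp after the start, 5 H1 genes remained, since H1-6 had too few reads. The H1 median then fell on an unmethylated gene in each replicate. The cause of the other shifts was not tested. Peaks above the list's median significance overlapped 39 members in place of 52. The testis-restricted median could not be had from the start window or with at least 50 reads, since no such gene had enough. Spans of at most 2000 bp and leaving out CpGs flagged as altered were added after seeing the data. No paired analysis was possible because there is 1 group. Depth limits the methylated genes most, with 4 to 41 reads in replicate 1.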

Other observations

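Chromosome 6 between 25 and 29 Mb also holds transfer RNA genes, which RNA polymerase III transcribes, and histone pseudogenes. The tRNA genes lie outside the spans of the chromosome 6 clusters given above. Of 144 tRNA genes between 25 and 29 Mb, 84 were measured with 500 bp on each side, 75 were under 20% in both replicates, 9 lay between the limits and none was over 80%. Among other autosomal protein-coding genes spanning at most 2000 bp 53% were under 20% and 22.8% over 80%. The measured tRNA genes had medians of 1.75% and 3.93%. Of all 144, 48, or 33.3%, overlapped a peak, against 21.7% of 1111 short genes. Both shares include genes that were not measured. Many tRNA genes had no read in either replicate, and of those not measured only TRQ-TTG3-3 had a peak. The highest measured tRNA gene was TRK-TTT6-1, at 50.5% of 105 reads and 59.6% of 114, with a peak.

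Of 13 histone pseudogenes 10 were measured: 4 were under 20%, 2 lay between and 4 were over 80%, with medians of 29.8% and 44.1%, and 4 of the 13, or 30.8%, had a peak. The 4 over 80% by mean were H2AC5P at 93.9%, H2BC2P at 92.2%, H2AC2P at 90.2% and H2AC9P at 87.5%. H2AC5P lies between the methylated genes H2BC3 and H3C3, and its window shares reads with theirs. Lowest was H2AC10P, at 0.499%, but its window takes in part of H2BC10 and the peak there. The window of H4C10P likewise takes in part of H2BC13 and the peak there. The peak of H3P26 was also counted for H1-1. The share of pseudogenes with a peak is thus not separate from that of the members. The tRNA genes and pseudogenes were looked at after the values of the histone genes were known.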
